A study of Mus musculus with 15 samples.

Results

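Lactase and the sugar transporters of the intestinal brush border were described here as 5 genes, Lct, Slc5a1, Slc5a4a, Slc2a5 and Slc2a2, out of 4178 genes in the deposited expression table. They were taken by name, across all groups, and they were picked with their levels in these same libraries already known. Their differences between groups are therefore given as descriptions, with a standard error and without a test.

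The libraries were bulk RNA sequencing of ileum, the last segment of the small intestine, from adult germ-free C57BL/6 mice. One group, PBS, received 200 µl of sterile PBS by gavage and stayed germ-free. The RG group received the same volume of a culture of Ruminococcus gnavus, a gut anaerobe, and the LGG group one of Lacticaseibacillus rhamnosus GG, a lactic acid bacterium used as a probiotic. Each group held 5 mice, which were killed 21 days after the gavage. Every mouse in the comparison had been reared germ-free, so the comparisons set 1 added species against none, and both colonized groups were compared with the same 5 PBS libraries.

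Dietary sugar reaches the enterocyte as disaccharides and starch fragments, which hydrolases anchored in the apical membrane split into monosaccharides. Lactase cuts milk sugar into glucose and galactose, and in most mammals it declines after weaning and is highest in the upper and middle small intestine. SGLT1, the product of Slc5a1, carries glucose and galactose in with sodium, GLUT5 (Slc2a5) carries fructose in, and GLUT2 (Slc2a2) lets these sugars leave across the basal side of the cell. Slc5a4a encodes SGLT3a, a close relative of SGLT1. Its human counterpart has been described as a glucose sensor more than as a transporter.

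Values were the authors' TPM, a measure of transcript abundance relative to all transcripts of a library, which is scaled by gene length and so allows levels of different genes to be set side by side. The listed genes held 48.05 to 66.055% of all TPM in a library. The number of reads is unknown, so counting error cannot be given. Among markers of the tissue, the epithelial transcript Epcam was present in every library, as was Slc51a, the basal bile acid exporter that is abundant in ileal enterocytes, at 182 to 1122 TPM. Other bile acid genes of the terminal ileum, Fabp6, Slc10a2, Fgf15 and Slc51b, were looked for and were not among the listed genes, so their levels are unknown. Several libraries stood apart. PBS mouse 1 had the highest summed smooth muscle markers (2624 TPM) and liver and pancreas markers (767 TPM), RG mouse 2 the highest T and B cell markers (711 TPM), and LGG mouse 4 the highest colon epithelium markers (28308 TPM). In bulk tissue, fewer cells of a type and less RNA per cell cannot be told apart.

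Lct lies at chr1:128284756-128328318 on the minus strand of GRCm38, with 17 exons. Slc5a1 lies at chr5:33104219-33162870, Slc2a5 at chr4:150119283-150144169, Slc2a2 at chr3:28697903-28731359 and Slc5a4a at chr10:76147451-76189265, each on the plus strand. Because the means of all 5 genes had the same order of groups, their upstream sequence is shown for the 3 members whose window held a searched motif. The sequences are from RefSeq (GRCm38.p6), 5′ to 3′ on the gene's own strand, and end 1 base before the transcript start: 128328319-128328568 on chromosome 1 for Lct, 33103969-33104218 on chromosome 5 for Slc5a1 and 28697653-28697902 on chromosome 3 for Slc2a2. Capitals mark the motif letters found on either strand.
Lct: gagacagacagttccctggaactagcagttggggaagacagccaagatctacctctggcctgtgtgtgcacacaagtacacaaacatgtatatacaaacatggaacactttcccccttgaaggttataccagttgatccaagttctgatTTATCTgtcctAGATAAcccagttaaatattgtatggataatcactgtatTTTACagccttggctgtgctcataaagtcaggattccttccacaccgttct
Slc5a1: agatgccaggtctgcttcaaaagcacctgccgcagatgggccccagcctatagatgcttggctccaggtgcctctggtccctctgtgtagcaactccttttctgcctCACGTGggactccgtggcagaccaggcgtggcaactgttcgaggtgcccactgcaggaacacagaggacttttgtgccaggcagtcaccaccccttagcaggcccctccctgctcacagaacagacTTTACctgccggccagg
Slc2a2: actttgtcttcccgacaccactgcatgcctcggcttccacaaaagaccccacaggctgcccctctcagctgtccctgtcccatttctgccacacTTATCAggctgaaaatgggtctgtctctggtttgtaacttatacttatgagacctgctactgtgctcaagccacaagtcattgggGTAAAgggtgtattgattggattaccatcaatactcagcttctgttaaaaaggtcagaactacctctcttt
The letters TTTAC, a short core of CDX factor sites, were found in all 3 windows, at 51 to 47 bases before the start in Lct, 17 to 13 in Slc5a1 and, on the opposite strand, 71 to 67 in Slc2a2. These letters occur in 28.64% of 27025 mouse promoter windows of 250 bases, so their presence is common. Lct also held AGATAA, a form of the GATA factor site, on the plus strand at 90 to 85 and on the opposite strand at 101 to 96, which 10.25% of the windows hold. Slc2a2 held TGATAA, another GATA form found in 8.159% of windows, at 156 to 151 on the opposite strand. Slc5a1 held CACGTG, the E-box, at 143 to 138 (6.046% of windows). GTTAAT, a half-site of HNF1 factors found in 6.52% of windows, was in none of the 5 members' windows. The windows of Slc5a4a and Slc2a5 held none of the 5 searched motifs. For Slc2a5 only 189 bases were searched, and 69.84% of them were G or C against a median of 52.0% over all windows. No motif letters overlapped those of another motif. A match of letters is a description and does not show binding.

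Lactase had the widest range of the members as a fold between the lowest and the highest of the 15 mice. In PBS mice 1 to 5, Lct stood at 1.61, 7.11, 2.33, 6.31 and 9.49 TPM. In RG mice 1 to 5 it stood at 11.4, 2.64, 16.0, 9.88 and 36.8 TPM. In LGG mice 1 to 5 it stood at 87.5, 489, 41.6, 3.32 and 23.3 TPM. RG mouse 5 was the highest of its group and RG mouse 2 fell inside the PBS range, while the other 4 RG mice were above every PBS mouse. LGG mouse 2 was far above the rest and LGG mouse 4 lay among the PBS mice, at place 12 of all 15 libraries. The PBS, RG and LGG means were 5.37 ± 3.33, 15.4 ± 12.9 and 129 ± 204 TPM (SD, n = 5 each). The LGG to PBS ratio was 24.0 for means and 6.59 for medians, since LGG mouse 2 held most of the group's sum. Lct differences were also taken on the log2(TPM + 1) scale, which understates changes of low genes. They were 1.17 (SE 0.944) for RG against PBS and 3.03 (SE 0.944) for LGG against PBS. For each member the SE rests on a variance pooled over all 3 groups, so it is the same in every comparison. The groups were not equally wide for Lct, with SDs on this scale of 0.87 (PBS), 1.22 (RG) and 2.50 (LGG). The wide LGG group therefore enters the SE of the RG against PBS difference as well.

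Slc5a1, the apical sodium-coupled glucose and galactose carrier, was the most abundant member and the only one whose 3 groups were all apart. Its TPM in PBS mice 1 to 5 was 119, 91.4, 80.6, 124 and 114. In RG mice 1 to 5 it was 174, 238, 296, 209 and 196. In LGG mice 1 to 5 it was 819, 1358, 821, 486 and 618. Every RG mouse was above every PBS mouse and below every LGG mouse. The means were 106 ± 18.9, 223 ± 47.1 and 820.5 ± 332 TPM (SD, n = 5 each), and the RG mean was 2.10 times that of PBS. The log2 difference was 1.06 (SE 0.231) between RG and PBS, and RG was lower than LGG by a log2 difference of -1.81.

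Slc5a4a, the SGLT3a gene, started from a low level and had the largest difference of the 5 on the log2(TPM + 1) scale in both colonized groups. PBS mice 1 to 5 held 2.88, 4.24, 6.26, 4.65 and 5.29 TPM. RG mice 1 to 5 held 18.9, 13.6, 13.6, 14.98 and 10.4 TPM, and LGG mice 1 to 5 held 52.3, 166, 35.4, 18.8 and 59.4 TPM. Both colonized groups lay wholly above PBS, and LGG mouse 4 was just below RG mouse 1. The RG median was 2.93 times and the LGG median 11.3 times that of PBS, with log2 differences of 1.44 and 3.24 (SE 0.400). Here too the pooled SE holds the LGG spread (log2 SD 1.13), which was wider than that of PBS (0.34) or RG (0.29). As a ratio of LGG to PBS medians, Slc2a2 (15.1) and Slc2a5 (11.6) were above Slc5a4a. As a ratio of LGG to PBS means, Lct was the highest of the 5 (24.0). A neighbouring gene of Slc5a4a on its chromosome, Slc5a4b (chr10:76057494-76110961, minus strand), encodes the related SGLT3b. Of 2025 stretches of 31 bases in the Slc5a4a transcript, 40 also occur in that of Slc5a4b, so a small part of their reads could be shared, and how the authors assigned such reads is not given in the sources used here. Slc5a4b, named here after its values were seen, had means of 13.7 ± 4.95, 25.1 ± 8.92 and 108 ± 92.5 TPM in the same order of groups. By limma it rose in LGG (log2 difference 2.60, adjusted p = 4.44e-05), and the RG difference of 0.82 did not pass (adjusted p = 0.135, and from 0.0407 to 0.628 over the alternatives, of which 1 passed). No stretch of 31 bases was shared between any 2 of the 5 members.

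Slc2a5, the apical fructose carrier, was second in median level in every group. PBS mice 1 to 5 held 3.94, 6.44, 7.08, 28.0 and 9.34 TPM, where mouse 4 stood well above the others. RG mice 1 to 5 held 15.3, 17.7, 54.8, 13.0 and 22.2 TPM, and mouse 3 was the high one. LGG mice 1 to 5 held 81.7, 112, 113, 28.1 and 82.2 TPM. The lowest LGG mouse and the highest PBS mouse differed by less than 0.1 TPM, so that the LGG and PBS groups were apart by a very small margin. Leaving PBS mouse 4 aside, all RG mice were above all PBS mice. The log2 difference from PBS was 1.19 (SE 0.484) in RG and 2.96 (SE 0.484) in LGG.

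Slc2a2, the basolateral GLUT2 gene, had the lowest median of the 5 in each group. PBS mice 1 to 5 held 1.87, 2.50, 2.59, 7.69 and 3.94 TPM. RG mice 1 to 5 held 5.33, 1.95, 15.3, 6.54 and 16.6 TPM, and LGG mice 1 to 5 held 39.1, 74.7, 42.6, 6.11 and 19.2 TPM. PBS mouse 4 was high, as it was for Slc2a5. RG mice 1, 2 and 4 and LGG mouse 4 were inside the PBS range. Of these, RG mouse 2 and LGG mouse 4 were inside it for Lct too. The log2 difference from PBS was 0.94 (SE 0.588) in RG and 2.72 (SE 0.588) in LGG. The LGG median was 15.1 times that of PBS.

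**Figure D1:**
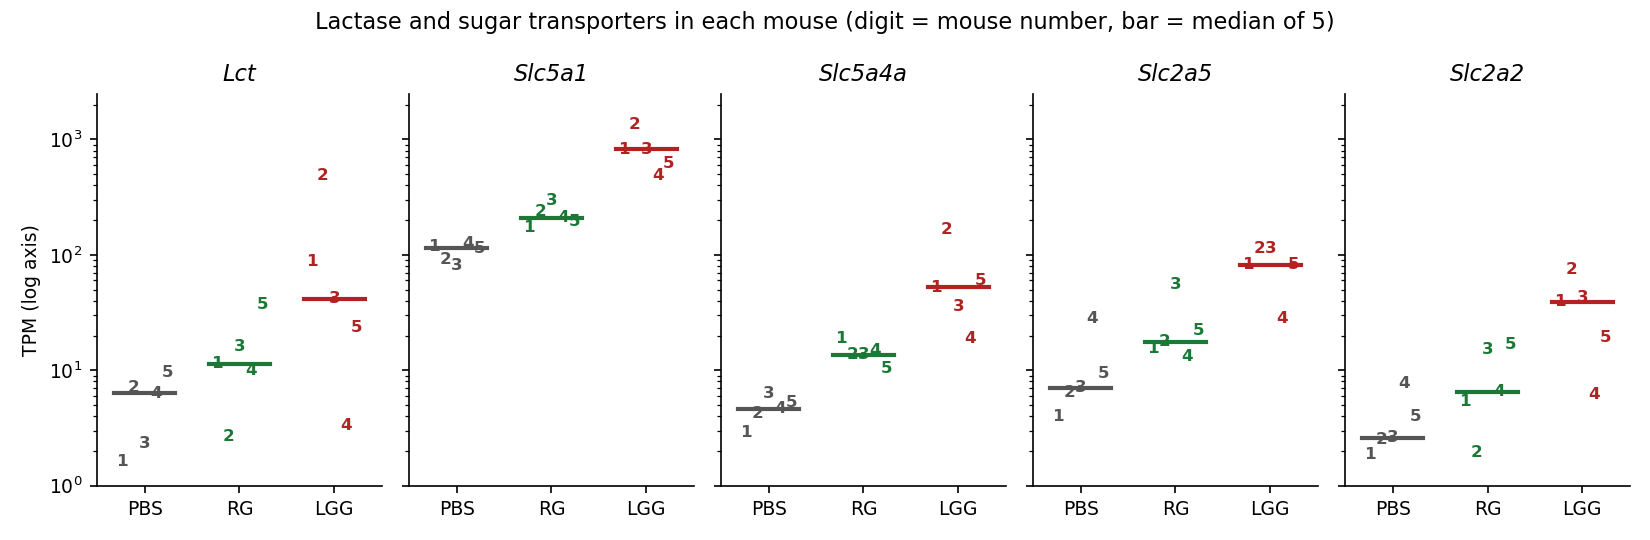
TPM of each member on a log axis, by group, where each digit is the number of the mouse within its group and the bar is the median of 5. LGG mouse 4 is the lowest LGG mouse in all 5 panels, and for Slc5a1 the 3 groups do not overlap.

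Set side by side, the members kept the group order PBS, RG, LGG in their medians, with different degrees of overlap. In RG against PBS, 2 of 5 members (Slc5a1 and Slc5a4a) did not overlap, where 13.0% of the 3530 tested genes lay wholly higher in RG. In LGG against PBS, 3 of 5 (Slc5a1, Slc5a4a and Slc2a5) did not overlap, where 53.0% of tested genes lay wholly higher in LGG. In RG against LGG, 1 of 5 (Slc5a1) lay wholly lower in RG, where 36.4% of tested genes did. The members were picked from these contrasts, so nothing is read from these counts.

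The places of the members among all genes describe the choice of the members and support nothing. Among 3530 tested genes ordered from the highest LGG against PBS log2 difference, Slc5a4a was at place 4, Lct at 7, Slc2a5 at 8, Slc5a1 at 10 and Slc2a2 at 15. Ordered by RG against PBS, Slc5a4a was at place 9, Slc2a5 at 26, Lct at 29, Slc5a1 at 53 and Slc2a2 at 95. The median over the members was 2.96 in LGG against PBS, beside a median of 1.17 over all tested genes. In RG against PBS the members' median was 1.17, beside 0.38 over all tested genes. In RG against LGG the 5 members lay close together on this scale, from -1.85 to -1.77, beside a median of -0.72. Their standard errors, from 0.231 for Slc5a1 to 0.944 for Lct, were wider than that span. As a ratio of means, LGG to RG ran from 3.39 for Slc2a5 to 8.40 for Lct.

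**Figure D2:**
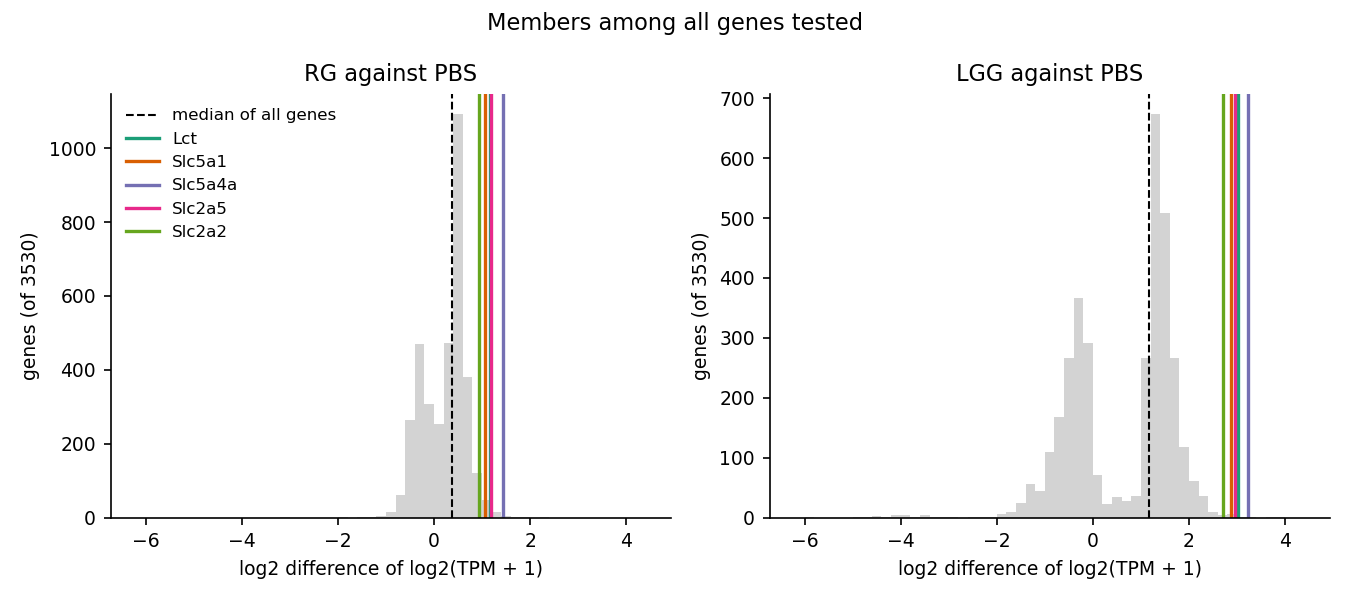
Histogram of the log2 difference of log2(TPM + 1) over all 3530 tested genes for RG against PBS and LGG against PBS, with 1 coloured line per member and a dashed line at the median of all genes (0.38 and 1.17). All 5 members lie in the upper tail in both panels, from 0.94 to 1.44 and from 2.72 to 3.24.

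Most listed genes were higher in LGG libraries than in PBS libraries on the TPM scale, and summed Paneth cell markers moved the other way. The 12 listed Paneth cell markers summed to 67510 to 89439 TPM in PBS mice, 65488 to 84365 in RG mice and 1337 to 16369 in LGG mice. By limma all 12 fell in LGG. The 9 listed epithelium markers summed to 3014 to 5368 TPM in PBS mice, 5070 to 8150 in RG mice and 14592 to 18092 in LGG mice. Their part in the members' differences was not tested. After centring each library on the 9 epithelium markers, which is an alternative and not the deposited scale, the LGG against PBS differences were 1.12 (SE 1.02) for Lct, 0.97 (SE 0.255) for Slc5a1, 1.33 (SE 0.463) for Slc5a4a, 1.06 (SE 0.524) for Slc2a5 and 0.82 (SE 0.660) for Slc2a2. These estimates were positive and smaller than on the deposited scale, and those of Lct and Slc2a2 were little larger than their standard errors. On the same centred scale the RG against PBS differences ran from 0.37 to 0.87, and RG against LGG from -0.52 to -0.44. With median-of-ratios scaling, under which the median of all genes moved from 1.17 to 0.40 in LGG against PBS and from 0.38 to 0.07 in RG against PBS, the members ran from 1.96 to 2.44 and from 0.69 to 1.16.

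**Figure D3:**
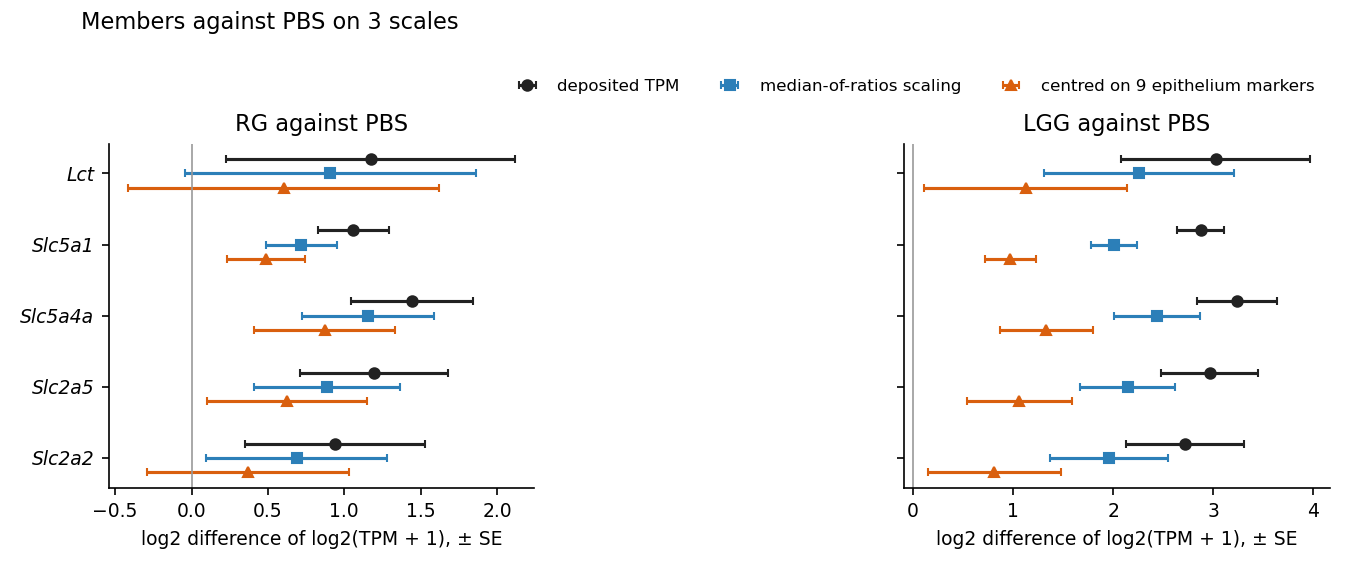
Log2 difference from PBS with its standard error for each member, on the deposited TPM scale, after median-of-ratios scaling and after centring each library on 9 epithelium markers. In LGG the members run from 2.72 to 3.24, from 1.96 to 2.44 and from 0.82 to 1.33 on the 3 scales. Each standard error is pooled over all 3 groups.

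Slc5a1 made up most of the summed TPM of the 5 members in every group. The 5 members together had mean sums of 130.7 ± 28.0 (PBS), 285.9 ± 65.1 (RG) and 1136 ± 633 TPM (LGG). Slc5a1 supplied 81.7 ± 6.89% of that sum in germ-free mice, 78.2 ± 6.74% with RG and 76.4 ± 9.92% with LGG. Lct supplied 4.07 ± 2.40, 5.41 ± 4.54 and 7.56 ± 8.64%, and Slc5a4a 3.76 ± 1.59, 5.28 ± 2.01 and 5.32 ± 2.05%, in the same order of groups. Slc2a5 supplied 7.78 ± 5.06, 8.03 ± 3.40 and 7.76 ± 2.67%, and Slc2a2 2.71 ± 1.12, 3.08 ± 1.93 and 2.92 ± 1.17%. The share of Lct ranged from 0.613 to 22.2% within LGG, wider than its range over PBS and RG together (0.964 to 13.1%). In level, Slc5a1 was apart from all other members in every group. Below it, neighbouring members in the order of medians overlapped in every group, so the order Slc2a5, Lct, Slc5a4a, Slc2a2 of the PBS medians is not set beyond the spread between mice.

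The members differed in how much mice of 1 group varied. Within LGG, the SD of log2(TPM + 1) was 2.50 for Lct, 1.31 for Slc2a2, 1.13 for Slc5a4a, 0.81 for Slc2a5 and 0.55 for Slc5a1, beside a median of 0.25 over all tested genes. Lct was 12th from the widest of 3530 genes in LGG. Within PBS, Slc2a5 (0.96) and Lct (0.87) were the widest members, at places 57 and 74, while Slc5a1 (0.27) was near the median of 0.23. Within RG, Slc5a1 (0.29) and Slc5a4a (0.29) varied less than the median gene (0.36), and Lct (1.22) and Slc2a2 (1.06) varied more.

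**Figure D4:**
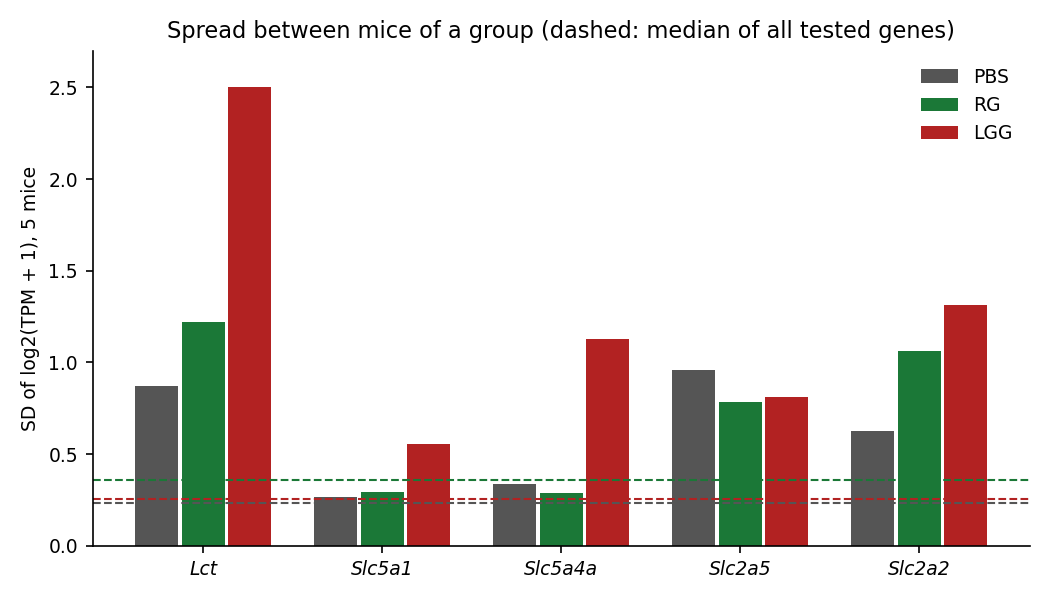
Standard deviation of log2(TPM + 1) over the 5 mice of each group, for each member, with dashed lines at the median over 3530 genes in each group (0.23, 0.36 and 0.25 for PBS, RG and LGG). The LGG bar of Lct, at 2.50, is the tallest, and Slc5a1 has the lowest bar of the 5 members in PBS and LGG.

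In LGG, the same mice were high or low for most members, which was less so in PBS and RG. In LGG, mouse 4 was lowest for all 5 members and mouse 2 was highest for 4 of 5, with mouse 3 highest for Slc2a5 by a narrow margin. In PBS, mouse 1 was lowest for Lct, Slc5a4a, Slc2a5 and Slc2a2, but second highest for Slc5a1. In RG, mouse 5 was highest for Lct and Slc2a2 and lowest for Slc5a4a, and mouse 3 was highest for Slc5a1 and Slc2a5. RG mouse 3 was also at place 2 of its group for Lct and Slc2a2, but at place 4 for Slc5a4a. Slc5a1 and Slc5a4a, both of the sodium-glucose family, thus did not share an order of mice in RG.

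Within LGG, the order of the mice by Lct was also their order by several genes with a known position along the gut. The genes named here were chosen after their values were seen. Gata4, a transcription factor of the upper small intestine that is normally absent from ileum, held 2.92, 33.7, 1.29, 0.353 and 0.503 TPM in LGG mice 1 to 5. Adh6a, an alcohol dehydrogenase on the proximal small intestine list, held 13.9, 117, 8.52, 1.89 and 3.77 TPM. Both ordered the LGG mice as Lct did, with mouse 2 highest, then 1, 3, 5 and 4. Car1, a carbonic anhydrase typical of colon epithelium, held 22.0, 12.1, 392, 25134 and 2549 TPM in the same mice, which is the reverse order. The summed colon epithelium markers (913, 794, 1485, 28308 and 3658 TPM) also had the reverse order, and the summed Paneth cell markers (9473, 16369, 6293, 1337 and 2795 TPM) had the order of Lct.

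Over whole lists, LGG mouse 2 was the highest of its group for 7 of 10 listed proximal small intestine genes and 12 of 12 Paneth cell markers, and LGG mouse 4 was highest for 7 of 7 listed colon epithelium markers and lowest for 11 of 12 Paneth cell markers. LGG mouse 2 was also the lowest of its group for the other 3 of the 10 proximal genes, and of 11 listed distal small intestine genes it was highest for 3 and lowest for 5. LGG mouse 4 was highest for 2 and lowest for 4 of those 11. Of the 10 proximal genes 7 passed the filter for testing, and Gata4, Cyp2b10 and Cyp2c29 did not. Cyp2c29 was highest in LGG mouse 2 at only 0.467 TPM. In RG, Adh6a again had the order of Lct, with mouse 5 highest (12.4 TPM) and mouse 2 lowest (3.07 TPM), while Gata4 was highest in mouse 5 (3.14 TPM) but not otherwise in that order. RG mouse 5, highest for Lct, had the lowest summed Paneth cell markers of its group and was lowest for 8 of 12 of them, and neither Car1 nor the summed colon markers had the reverse order of Lct in RG. In PBS neither gene ordered the mice as Lct did. The part of gut position in the members' levels was not tested. Without LGG mice 2 and 4, the highest and the lowest mouse for Lct, the LGG against PBS difference was 3.01 for Lct, 2.82 for Slc5a1, 3.14 for Slc5a4a, 3.24 for Slc2a5 and 2.92 for Slc2a2. Leaving out both ends of a group changes its mean little by construction. With mouse 2 or mouse 4 alone left out, the Lct difference was 2.17 or 3.88.

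**Figure D5:**
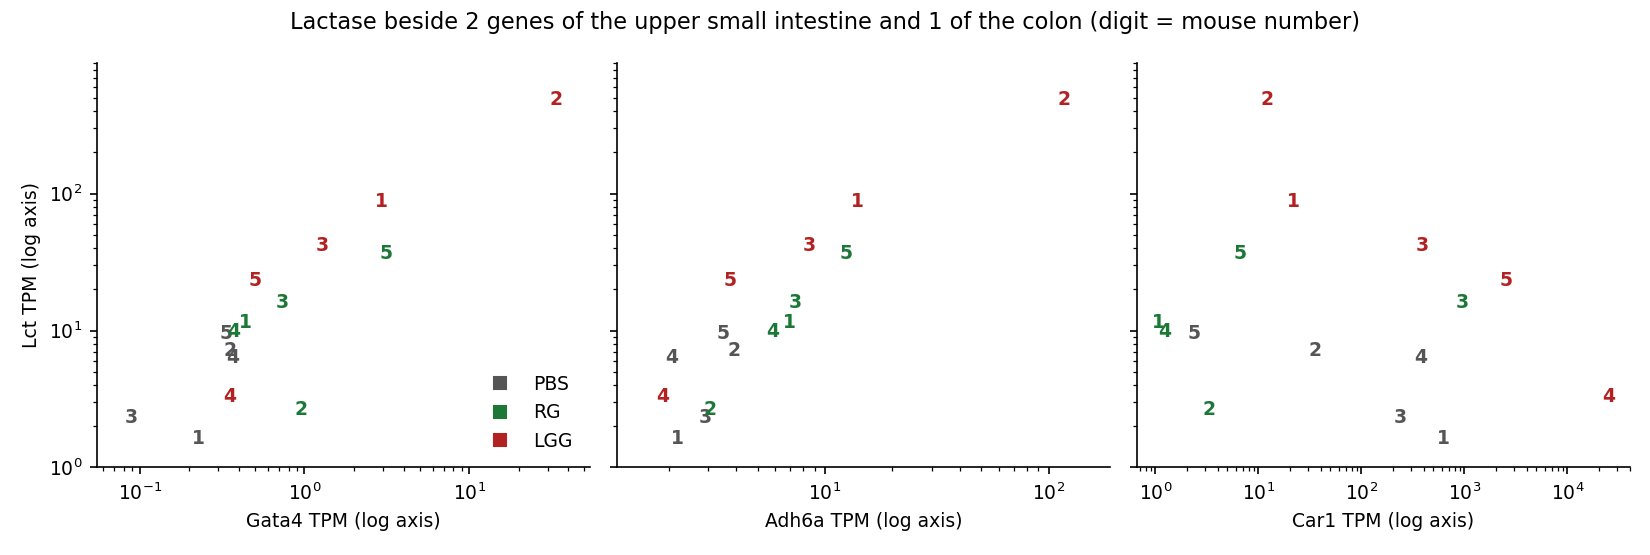
Lct TPM against Gata4, Adh6a and Car1 TPM on log axes, 1 point per mouse with its number, coloured by group. The LGG mice run from mouse 4 (3.32 TPM of Lct) to mouse 2 (489 TPM) in the same order for Gata4 and Adh6a, and in the reverse order for Car1.

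The genes most like each member in pattern were found by Pearson's r of log2(TPM + 1) over the 15 libraries among 3424 tested genes, predicted genes and clones left out. These r values rest on points that share 3 groups and the scaling of each library, and are given as descriptions. Lct was most like Plb1 (r = 0.97), a brush-border phospholipase, followed by Fam151a and by Rragd, a GTPase of lysosomal nutrient signalling (both 0.97). With group means taken off, Plb1 was still first (r = 0.98). Plb1, which is on the distal small intestine list, held 145, 500, 88.9, 4.00 and 30.9 TPM in LGG mice 1 to 5, and so also ordered them as Lct did. Slc5a1 was most like Slc16a10 (r = 0.99), a carrier of aromatic amino acids, then the serotonin transporter gene Slc6a4 and the peptide transporter gene Slc15a1 (both 0.98).

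Slc5a4a was most like Slc15a1 (r = 0.96), and, with group means taken off, like the alpha-defensin gene Defa36 and the glycerol and water channel gene Aqp3 (both 0.88). Slc2a5 was most like the stress-induced pseudokinase gene Trib3 (r = 0.96). Slc2a2 was most like Ano6 (r = 0.93), a calcium-activated lipid scramblase gene, and Lct was its nearest gene with group means taken off (r = 0.89). Among the members themselves, r with group means taken off ran from 0.39 for Slc5a4a and Slc2a5 to 0.89 for Lct and Slc2a2.

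The other sugar hydrolases of the brush border, which are not members, were tested with limma over all 3530 genes. Their list was also chosen with earlier results of these data known. Sucrase-isomaltase, Sis, which cuts sucrose and starch fragments, had PBS, RG and LGG means of 134 ± 9.12, 261 ± 106 and 643 ± 166 TPM. Sis rose in RG (log2 difference 0.86, adjusted p = 0.0311) and in LGG (2.21, adjusted p = 1.03e-06). Maltase-glucoamylase, Mgam, stood at 47.8 ± 8.39, 82.3 ± 25.5 and 233 ± 29.8 TPM and rose in both, by 0.73 (adjusted p = 0.0247) and 2.27 (adjusted p = 7.20e-08). Trehalase, Treh, stood at 37.0 ± 8.32, 58.2 ± 13.7 and 150 ± 49.8 TPM. It rose in LGG (1.95, adjusted p = 1.47e-06), and its RG difference of 0.63 did not pass (adjusted p = 0.0522). Over 27 alternatives the RG call of Sis was lost in 10 (adjusted p from 0.0203 to 0.403), including 5 that each left out a single mouse (PBS mice 1, 3 and 5, RG mice 3 and 5). That of Mgam was lost in 6 (0.0194 to 0.352), including those without PBS mice 3 and 5 in turn. Treh passed in 7 of them (0.0291 to 0.410). The LGG calls of all 3 passed in every alternative. In level, Sis exceeded Lct on the TPM scale in every one of the 15 mice, and the ratio of LGG to PBS medians was 5.17 for Sis and 6.59 for Lct.

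Of 25 other sugar transporter genes, 13 were tested, and 4 rose in RG while 12 rose in LGG, with none lower. Over all tested genes 22.8% were called higher and 4.08% lower in RG, and 54.7% higher and 16.5% lower in LGG, by the same rule. In RG those that rose were the urate transporter gene Slc2a9 (0.73, adjusted p = 0.0115), the glucose 6-phosphate transporter gene Slc37a4 (0.82, adjusted p = 0.0225), Slc37a3 (0.47) and the monocarboxylate transporter gene Slc5a8 (0.56). Over 27 alternatives these calls were lost in 2, 4, 11 and 11. In LGG the same 4 differed by 1.86, 2.01, 1.28 and 1.57 and rose. The median of the 13 was 0.65 in RG and 1.68 in LGG, beside 0.38 and 1.17 over all tested genes. The list counts below stand beside the same shares of all tested genes, 22.8% called higher in RG and 54.7% in LGG.

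Inside the cell, 2 of 7 tested genes of fructose and galactose breakdown rose in RG and 7 of 7 in LGG. They included Tkfc, the kinase of the fructose product glyceraldehyde (0.76 in RG, adjusted p = 0.0412, lost in 15 of 27 alternatives, and 2.10 in LGG, adjusted p = 1.60e-06), and the aldehyde dehydrogenase gene Aldh1b1 (0.87 and 2.18). Of 11 tested glycolysis genes, 2 rose in RG, the pyruvate kinase gene Pklr (0.68) and the phosphofructokinase gene Pfkp (0.50), lost in 5 and 10 of 27 alternatives, and 11 rose in LGG, where Pklr differed by 1.81 and Pfkp by 1.67. Of 2 tested gluconeogenesis genes none passed in RG, where the differences were 0.45 for the fructose-bisphosphatase gene Fbp2 and 0.37 for the phosphoenolpyruvate carboxykinase gene Pck1, and both rose in LGG (1.54 and 1.98). Of 3 tested glucose-responsive regulators, none passed in RG and 1 rose in LGG, the taste and tuft cell channel gene Trpm5 (1.53), which did not pass with a length trend taken off (0.47). Mlxipl, which encodes the glucose-sensing factor ChREBP, differed by 0.55 in RG (adjusted p = 0.284) and 0.15 in LGG (adjusted p = 0.750).

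Genes of the sodium pump and of the ion gradient that SGLT1 uses were tested one by one and counted. Atp1b1, the beta subunit of the pump, had PBS, RG and LGG means of 271 ± 52.1, 460.2 ± 107 and 1294 ± 155 TPM. Atp1b1 rose in RG (log2 difference 0.75, adjusted p = 0.0225, lost in 4 of 27 alternatives) and in LGG (2.27, adjusted p = 5.07e-08). Of the 12 tested genes of this list 6 rose in RG and 10 rose in LGG, with 1 lower in LGG. That gene, Fxyd3, a regulator of the pump, is named because it was the exception (-0.83, adjusted p = 0.000206). Of 9 tested transcription factors of absorptive genes 3 rose in RG, Maf (0.70), Gata5 (0.62) and Gata6 (0.49), whose calls were lost in 5, 12 and 13 of 27 alternatives, and 8 rose in LGG, among them the intestinal factor Cdx2 (1.83) and Gata6 (1.50).

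Brush-border genes that do not handle sugar moved in the same direction. Of 20 tested microvillus scaffold genes 14 rose in RG and 19 in LGG, with the actin bundler gene Vil1 at 0.72 and 2.15. Of 22 tested peptidases and amino acid carriers 17 rose in RG and 22 in LGG, with the aminopeptidase gene Anpep at 0.94 and 2.47. The medians of these lists were 0.57 and 0.80 in RG and 1.81 and 2.17 in LGG. Of 7 tested proximal small intestine genes 2 rose in RG, and in LGG 5 rose and 1, the chemokine gene Ccl11, fell by 0.95. Of 11 tested distal small intestine genes 4 rose in RG and 11 in LGG, with the vitamin B12 receptor gene Cubn at 0.67 and 2.24. Of the genes of villus base enterocytes 4 of 7 rose in RG and 4 of 7 in LGG, and of those of villus tip enterocytes 5 of 9 and 8 of 9, with the apolipoprotein gene Apob at 0.56 (lost in 16 of 27 alternatives) and 2.25. Over all tested genes 22.8% were called higher in RG and 54.7% in LGG. The proximal share in RG (28.57%) and the villus base share in LGG (57.14%) were near these. The RG share of fructose and galactose breakdown genes was also 28.57%, and that of other sugar transporters was 30.77%. The RG share of glycolysis genes (18.18%) was below that of all tested genes, and no gluconeogenesis gene or glucose-responsive regulator was called in RG.

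Set against each other, RG and LGG differed for 112 of the 129 tested list genes, of which 109 were lower in RG and 3 higher, where 53.5% of all tested genes were called lower and 8.19% higher. All 3 sugar hydrolases were lower in RG, with Mgam at -1.54 (adjusted p = 1.63e-05), Sis at -1.35 and Treh at -1.31, of which Sis and Treh did not pass with upper-quartile scaling (-0.64 and -0.61), nor Sis with a length trend taken off (-0.69). So were 12 of 13 other sugar transporters, 7 of 7 fructose and galactose genes and 10 of 11 glycolysis genes. The RG against PBS calls of these lists depended on the scaling and on single mice. Of 129 genes, 61 rose on the TPM scale, while 8 rose and 1 fell under median-of-ratios scaling, none after a trend on transcript length was taken off (32 at an unadjusted p under 0.05), and none once PBS mouse 1 and RG mice 2 and 5 were left out (60 at an unadjusted p under 0.05). Without PBS mouse 3 alone 13 rose, and with PBS mouse 5, RG mouse 2 or RG mouse 3 left out 29, 29 and 26 rose. The LGG against PBS calls, 116 of 129 higher, numbered 105 with median-of-ratios scaling, 95 with upper-quartile scaling and 90 with the length trend taken off. Over all tested genes, 1932 were called higher in LGG on the TPM scale, and 1729, 1440 and 1368 under these 3 settings. In RG against PBS, 804 of all tested genes rose on the TPM scale, while 42 rose and 570 fell with median-of-ratios scaling.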

How the data were processed

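Total RNA of ileum was turned into libraries with an Illumina-compatible NEBNext kit, per the labels' protocols. The genome build was GRCm38 (mm10), per the submitters' processing notes. No source used here gives the aligner, the counter or the rule by which genes were listed. A single table of TPM for 4178 genes and 15 libraries was deposited by the authors, and all its columns were used. Of these genes 4173 matched GENCODE M21 by identifier and 4159 are protein coding. No counts were used, so depth and counting error are unknown.

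TPM were put on the log2(TPM + 1) scale, and 3530 genes with at least 1 TPM in at least 5 libraries were tested (648 were not). All 5 members passed. One limma model (R 4.3.3, limma 3.58.1, trend and robust shrinkage) was fitted over all 15 libraries, and p-values were Benjamini-Hochberg adjusted over the tested genes, with a gene called under 0.05. Simulated data with 200 changed genes were used to test it. No p is given for members, whose contrasts chose them. The members and the gene lists were chosen with earlier results of these data known. From each list up to 4 called genes per comparison with the smallest p could be named. Alternatives were other pseudocounts, filters, scalings, centring on epithelium or microvillus genes, a length trend, a replicate block, other limma settings and left-out libraries. Those leaving out PBS mouse 1 and RG mice 2 and 5, or LGG mice 2 and 4, were chosen after seeing the data. Upstream sequences and motif counts used the RefSeq promoter table of GRCm38.p6, and shared stretches used GENCODE transcripts. Scripts ran in Python 3.11.15 with pandas 2.3.3 and numpy 2.4.6.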

Additional observations from a re-analysis of the deposited data

Results flagged for a closer look

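Within groups of 5 mice, a value was set aside for a closer look when its gap to the nearest mouse was more than 0.71 of the group's range (Dixon's test). Of 24 groups checked, for the 5 members and the 3 other hydrolases, 5 met this. The check used TPM and not the log2 scale, and the genes share the same mice. The count is therefore not set against a rate of chance. Lct was at 489 TPM in LGG mouse 2 and at 87.5 in the next mouse. Slc5a4a was at 166 TPM in the same mouse and at 59.4 in the next. Slc2a5 was at 28.0 TPM in PBS mouse 4, with 9.34 next, and at 54.8 in RG mouse 3, with 22.2 next. Sis was at 349 TPM in LGG mouse 4, the lowest, with 688 next.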

How the results depend on the processing

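No member changed direction under any alternative tried, and every value with 1 library left out lay within the spread between mice of the main value: for RG against PBS from 0.67 to 1.62 over the members, for LGG against PBS from 2.17 to 3.88, and for RG against LGG from -2.70 to -0.995. Depth is unknown, and 5 mice a group limit the precision. The cause of the shifts below was not tested.

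Members moved by more than the spread between mice as follows. Slc5a1 in RG against PBS was 0.72 with median-of-ratios scaling, 0.66 with the length trend taken off, and 0.49 and 0.47 centred on epithelium or microvillus genes, and Slc5a4a was 0.87 and 0.85 on the last pair of scales. In LGG against PBS, Slc5a1 was 2.01 with median-of-ratios, 1.90 with upper-quartile scaling and 1.81 with the length trend taken off. Upper-quartile scaling gave 2.34 for Slc5a4a and 2.04 for Slc2a5, and the length trend gave 1.95 for Slc2a5 and 1.66 for Slc2a2. Centred on epithelium markers, Lct was 1.12, Slc5a1 0.97, Slc5a4a 1.33, Slc2a5 1.06 and Slc2a2 0.82, and centred on microvillus genes Slc5a1 was 1.14, Slc5a4a 1.51, Slc2a5 1.24 and Slc2a2 0.99. In RG against LGG, Slc5a1 was -1.29, -1.11 and -1.16 with median-of-ratios, upper-quartile scaling and the length trend. Centred on epithelium markers Slc5a1 was -0.48, Slc5a4a -0.46, Slc2a5 -0.44 and Slc2a2 -0.44, and on microvillus genes the first 3 were -0.68, -0.65 and -0.63.

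Over all genes, 948 were called in RG against PBS (804 higher, 144 lower), and 612 with median-of-ratios (42 higher, 570 lower), 605 with upper-quartile scaling (133 higher, 472 lower), 383 with only these groups fitted, 56 with the length trend taken off (12 higher, 44 lower), and 0 by limma once PBS mouse 1 and RG mice 2 and 5 were left out (965 at an unadjusted p under 0.05). With 1 library left out the count ran from 40 (without PBS mouse 3) to 1594 (without RG mouse 4), and was 437, 624 and 124 without PBS mouse 1, 4 or 5 and 150 and 177 without RG mouse 2 or 3. The list genes called (61) numbered 9 with median-of-ratios, 24 with upper-quartile scaling, 0 with the length trend, 0 without those 3 mice, and 13 to 77 with 1 library left out. In RG against LGG the 112 list genes called numbered 64 with upper-quartile scaling and 74 with the length trend. The split of all genes called was 1932 higher and 582 lower in LGG against PBS, and 1729 and 1391 with median-of-ratios and 1440 and 1387 with upper-quartile scaling. In RG against LGG it was 289 higher and 1887 lower, and 1088 and 1057, and 1250 and 498.

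Mouse numbers are shared between groups, but only 4 of 15 same-numbered pairs had deviations correlated above 0.1 (range -0.46 to 0.29), so the numbers were not taken to pair the mice. A replicate block gave 174 genes called in RG against PBS and 31 list genes. Over the list genes that could be named, no alternative reversed a direction, 211 values no longer passed and 8 newly passed with another setting, and 138 and 9 with 1 library left out.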
